A study of Mus musculus with 18 samples.

Results

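Of the 1121 regions that carried a TDG peak on chromosomes 1 to 19 of mouse cerebral cortex, 226 (20.2%) were overlapped by no H3K27ac, H3K4me1, PolII_S5P or MBD3 peak in any animal. TDG peaks of 3 animals were merged where they overlapped by at least 1 bp, and a merged region was kept if none of the 12 peak lists of the other 4 antibodies touched it. The regions were therefore selected on the measured peak overlaps, and the lack of other peaks is not a result. The remaining 895 TDG regions, each touched by at least 1 of the 12 lists, are called overlapped below. They include 598 with both MBD3 and H3K27ac peaks and 417 with an H3K4me1 peak.

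Chromatin was immunoprecipitated from surgically removed, frozen cortices of 3 wild-type female C57BL/6J mice aged 14 weeks, which carry the numbers 5, 7 and 9 in the labels. Each cortex gave 1 library per antibody, so equal numbers denote the same animal, and all groups share strain, sex, age and tissue. The animals are separate, but each antibody was sequenced once per animal. No treatment or genetic change was applied, and input samples were not analysed here. A library from whole cortex mixes neurons, glia and vessels, so binding in few cells and weak binding in many cells cannot be told apart. Positions are on the mouse build mm39, counted from 1. The gene tables used here are on another build, so no gene or sequence is given for a region.

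TDG, thymine DNA glycosylase, removes thymine from mismatches with guanine and removes the oxidized cytosine bases 5-formylcytosine and 5-carboxylcytosine, after which base excision repair restores cytosine. The enzyme is known for its part in active DNA demethylation at promoters and enhancers. H3K27ac marks active promoters and enhancers, H3K4me1 lies mainly at enhancers, and PolII_S5P is RNA polymerase II in the form found near transcription starts. MBD3 belongs to NuRD, a complex that moves nucleosomes and removes acetyl groups from histones. A TDG region without any of these peaks lacks a called mark of an active promoter or enhancer in these lists, which is not the same as lacking the mark.

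The TDG lists were short and unequal, with 125, 240 and 934 peaks on chromosomes 1 to 19 in animals 5, 7 and 9. The 12 other lists held 4418 to 68890 peaks each over all sequences, and together they covered 128.654 Mb of the 2396.44 Mb spanned by peaks (5.37%). The total number of reads is not given in the files. The fold enrichment and p-value of each peak did give the number of fragments at its summit and the number the peak caller expected there. Whole summit counts were obtained for 494199 of 494199 peaks in the 15 lists. At very high counts some whole count always fitted, so this was no check there. The lowest expected count of a list, called its floor, was 2.21, 1.16 and 2.13 in the TDG lists of animals 5, 7 and 9. In MACS2 this floor is a background over the whole genome that rises with the number of reads.

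Animals 7 and 9 supplied nearly all of the regions, and animal 7 supplied far more than its share of the TDG peaks. Of the 226 regions, 112 had a TDG peak in animal 7 alone, 105 in animal 9 alone and 5 in animal 5 alone. One further region had peaks in animals 5 and 7, and 3 had peaks in animals 7 and 9. Read against all TDG regions of the same animals, 112 of 155 regions found in animal 7 alone were without another peak (72.3%), against 105 of 820 in animal 9 alone (12.8%) and 5 of 25 in animal 5 alone (20%).

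By single peaks, animal 7 again had the highest share, while animals 5 and 9 changed places. In animal 5, 6 of 125 TDG peaks lay in these regions (4.8%, exact binomial 95% interval 1.78 to 10.2%). In animal 7 the number was 116 of 240 (48.3%, 41.9 to 54.9%), and in animal 9 it was 108 of 934 (11.6%, 9.58 to 13.8%). The 3 intervals take peaks as independent draws, which neighbouring peaks are not. They cover counting error only and do not compare the animals. The mean over animals was 21.6 ± 23.4% (SD, n = 3), and it fell to 9.89% without animal 7. Leaving out an animal also removed its lists of the other antibodies, and the shares of animals 5 and 9 were then 6.4% and 13.4%. With 1 TDG library per animal, a difference between animals cannot be told apart from a difference between libraries. The lower floor of animal 7 moves with its higher share, and the part of depth in that share was not tested.

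**Figure D1:**
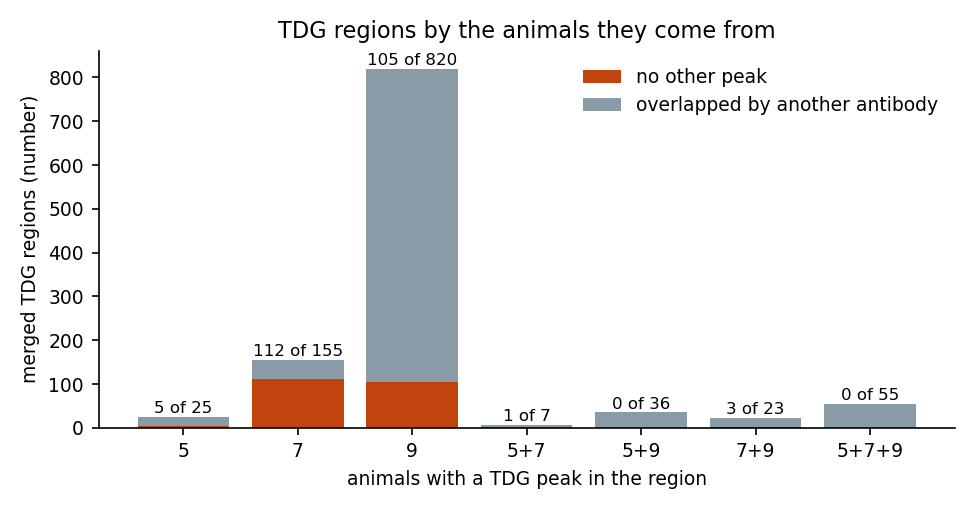
Number of merged TDG regions (vertical axis) by the animals that have a TDG peak in the region (horizontal axis), split into regions with no other peak and regions overlapped by another antibody. Animal 7 alone is the only set in which most regions, 112 of 155, have no other peak, and none of the 55 regions found in all 3 animals does.

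Recurrence between animals was rare among these regions. Of the 226, 222 had TDG in 1 animal, 4 in 2 animals and 0 in all 3, so 1.77% recurred, whereas 117 of the 895 overlapped regions recurred (13.1%). All 55 regions with TDG in the 3 animals were overlapped by another antibody. At the level of peaks, 16.7%, 3.45% and 2.78% of those in regions with no other peak overlapped a TDG peak of another animal in animals 5, 7 and 9. The values for the overlapped peaks of the same lists were 83.2%, 65.3% and 13.4%. The difference within a library was -46.4 ± 31.0 percentage points (SD, n = 3) and lower in 3 of 3 animals. In animal 5 it rested on 6 peaks, 5 of them within 3.805 kb on chromosome 1, described below. The two-sided exact sign-flip permutation p was 0.25, the smallest that 3 animals allow (adjusted p = 0.375 over 3 tests), so the design cannot reach the usual threshold. Recurrent regions were merged from several peaks and are a larger target for another list, which bears on this comparison.

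TDG peaks in regions with no other peak were weaker than the overlapped peaks in animals 5 and 7 and nearly level with them in animal 9. The fold enrichment used here is the authors' ratio of the signal at the summit to the local background, and it was compared only within a list. In animal 5 the 6 peaks had folds of 1.31 to 5.75 (median 3.95), while the 119 overlapped peaks had a median of 7.06 and a highest value of 25.9. In animal 7 the 116 peaks ranged from 1.27 to 9.27 (median 4.09), and the 124 overlapped peaks from 1.34 to 22.7 (median 5.90). In animal 9 the 108 peaks ranged from 1.43 to 8.30 (median 4.37), and the 826 overlapped peaks from 1.70 to 39.6 (median 4.47).

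The ranges overlapped in every animal, and the highest folds of each list lay in overlapped regions. The differences of the median log2 fold were -0.85, -0.53 and -0.03 in animals 5, 7 and 9, with a mean of -0.47 ± 0.41 (SD, n = 3). The value of animal 5 came from 6 peaks, 5 of them within 3.805 kb on chromosome 1. The direction was the same in 3 of 3 animals, although in animal 9 the difference was 0 when the other peaks were widened by 500 or 5000 bp or when peaks on a high background, defined below, were left out. The exact sign-flip permutation p was 0.25, the smallest attainable (adjusted p = 0.375). Ranked within their whole list, the peaks had a median percentile of 18.5, 39.5 and 46.7, against 58.0, 74.0 and 51.6 for overlapped peaks. Whether weaker sites were missed more often by the other lists, and so selected more often, was not tested.

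**Figure D2:**
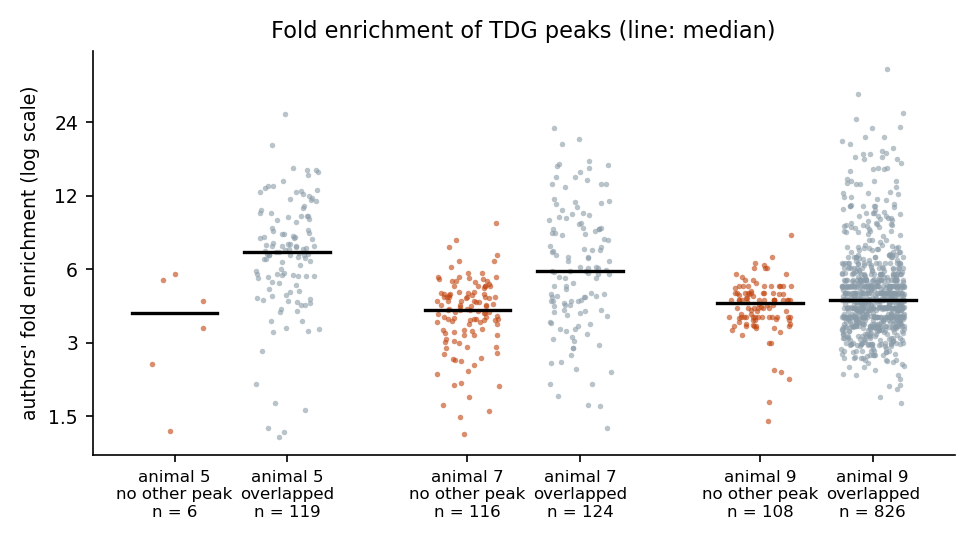
The authors' fold enrichment (vertical axis, log scale) of each TDG peak, by animal and by whether its region has no other peak or is overlapped (horizontal axis), with black lines at the medians. The medians are 3.95 and 7.06 in animal 5, 4.09 and 5.90 in animal 7, and 4.37 and 4.47 in animal 9, and the highest folds of each list lie in overlapped regions.

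The authors' q-value gave a different order from the fold in animal 5. The median −log10 q of peaks in regions with no other peak was 517, 3.51 and 2.94 in animals 5, 7 and 9, against 25.4, 11.8 and 3.55 for overlapped peaks. A −log10 q of at least 5 was reached by 6 of 6 such peaks in animal 5, by 37 in animal 7 (31.9%) and by 14 in animal 9 (13.0%). The shares among overlapped peaks were 89.1%, 67.7% and 35.1%. Animal 5 thus had few of these peaks, all with very low q-values at modest folds. Most of those in animals 7 and 9 lay below a −log10 q of 5, as did most overlapped peaks of animal 9.

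The recovered counts show how these peaks differ. In animal 9 the median summit count was 14 fragments (exact Poisson 95% interval for a count of 14, 7.65 to 23.5), and 102 of 108 peaks had 20 fragments or fewer (94.4%). In animal 7 the median was 18 (10.7 to 28.4), and 74 of 116 had 20 or fewer (63.8%). Among overlapped peaks the share with 20 or fewer was 29.8% in animal 7 and 71.3% in animal 9. These low counts mean that the fold of a single region in animals 7 and 9 is imprecise.

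In animal 5 the counts were of another order. The 6 peaks had 886 to 41282 fragments at the summit (median 1529.5), against a median of 57 for the overlapped peaks of that list, and none had 20 or fewer.

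The background that the peak caller expected also differed between the animals. In animal 9, 62 of the 108 peaks lay at the floor of the list, within 1% (57.4%), against 35.7% of overlapped peaks. In animal 7, 12 of 116 did (10.3%), against 6.45%. In animal 5, 0 of 6 did, against 14.3%. At the other end, an expected count of at least 10 times the floor was found at 6 of 6 peaks in animal 5, 20 of 116 in animal 7 (17.2%) and 3 of 108 in animal 9 (2.78%). The corresponding shares of overlapped peaks were 18.5%, 25.0% and 2.42%.

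**Figure D3:**
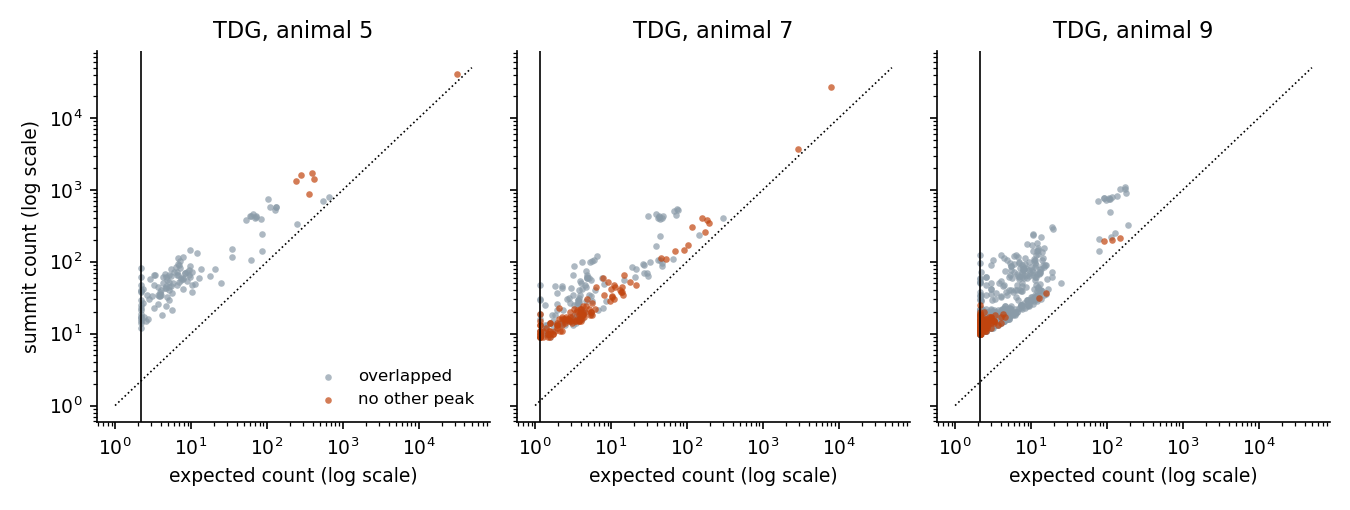
Number of fragments at the summit (vertical axis, log scale) against the number the peak caller expected (horizontal axis, log scale) for each TDG peak, in 1 panel per animal. The vertical line is the floor of the list and the dotted line marks equal values; the 6 peaks of animal 5 with no other peak lie at expected counts of 243 or more, while 62 of 108 in animal 9 lie at the floor.

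Recurrence was more frequent at a high local background, both among regions with no other peak and among overlapped ones. Counting a region as high-background when a TDG peak in it had an expected count of at least 10 times the floor, 25 of the 226 regions qualified (11.1%), and 36 of the 895 overlapped regions did (4.02%). All 4 recurrent regions with no other peak were among the 25, and none of the other 201 recurred. That is 16% of the 25. Among overlapped regions, 24 of the 36 with a high background recurred (66.7%), against 93 of 859 under 10 times the floor (10.8%). Most of these 36, and most of the 24, lay in a single stretch of chromosome 6 between 46747489 and 52922038. The 66.7% therefore rests largely on that stretch. A region with peaks in several animals also had more chances to qualify as high-background, which bears on this comparison. The 25 regions held 29 TDG peaks on 10 chromosomes, with folds of 1.27 to 5.75 and a median of 2.43, and their median width was 416 bp against 253 bp for the 201. The class of high background was set after the values were seen. With such peaks left out, animal 5 had no region with no other peak.

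The 4 recurrent regions had low folds over many fragments. The first was at chromosome 2, 98496959 to 98497640 (682 bp). Animal 5 had 41282 fragments where 31592 were expected (fold 1.31), and animal 7 had 26689 where 7929 were expected (fold 3.37, −log10 q 5914). The expected counts were 14324 and 6846 times the floors of the 2 lists, the highest of any TDG peak with no other antibody. Its nearest other peak, of MBD3, lay 525557 bp away.

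A pair of recurrent regions lay on chromosome 13, separated by under 2 kb. At 120061341 to 120062093, animals 7 and 9 had 141 and 193 fragments where 69.9 and 90.5 were expected, with folds of 2.00 and 2.12. At 120063589 to 120064277 they had 145 and 198 fragments where 91.7 and 115 were expected, with folds of 1.58 and 1.71. The nearest peaks, both of H3K4me1, were 13654 and 11470 bp away. The last, at chromosome 9, 124020169 to 124020457, had 172 and 211 fragments in animals 7 and 9 where 103 and 147 were expected (folds 1.66 and 1.43). A PolII_S5P peak lay 677 bp from it. All 4 regions ranked low in their lists by fold, at the percentile 23.2 or below.

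The regions of animal 5 alone formed a single run. All 5 lay at chromosome 1, 24651429 to 24655233, within 3.805 kb. By number of regions this was the longest run of neighbours within 100 kb of each other, while runs of 4 and 3 regions on chromosomes 8 and 14 covered more sequence (93.7 and 93.6 kb). Their summit counts were 1626, 1433, 886, 1728 and 1318 in order of position, where 282, 415, 362, 387 and 243 were expected. The folds were 5.75, 3.45, 2.45, 4.46 and 5.40, and the −log10 q-values ran from 114 to 650. The expected counts were 110 to 188 times the floor, and the nearest other peak, of H3K27ac, lay 24574 to 28036 bp away. Animals 7 and 9 had no TDG peak there. The list of animal 5 also held 12 peaks on the mitochondrial chromosome, with 1423 to 3323 fragments and folds of 2.95 to 5.59, whereas the lists of animals 7 and 9 held 0 and 1. Any link between these peaks and the run was not tested.

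The regions of animals 7 and 9 with the highest folds rested on few fragments. In animal 7 the highest fold was 9.27 at chromosome 8, 19784348 to 19784574, from 19 fragments where 1.16 were expected. Chromosome 1, 179667106 to 179667407 (fold 7.88, 23 fragments), and chromosome 1, 85100855 to 85101084 (fold 7.41, 15 fragments), followed. These 3 were at the percentiles 88.8, 83.7 and 82.5 of the list. In animal 9 the highest was 8.30 at chromosome 13, 22095408 to 22095639, from 25 fragments where 2.13 were expected. The next, on chromosome 18, had a fold of 6.70 from 20 fragments, and chromosome 3, 8310960 to 8311398, had 6.38 from 19 fragments. None of these 6 regions with the highest folds had a TDG peak in a second animal. The one on chromosome 3 lay 194052 bp from any other peak, and the other 5 lay 384 to 5069 bp from one.

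Width did not separate the regions in 1 direction. The median width of the peaks was 342, 270 and 247.5 bp in animals 5, 7 and 9, against 272, 340.5 and 288.5 bp for overlapped peaks. They were thus wider in animal 5 and narrower in animals 7 and 9, with log2 differences of 0.33, -0.33 and -0.22. Animal 5 again rested on 6 peaks, 5 of them in the run on chromosome 1. The mean was -0.08 ± 0.36 (SD, n = 3), less than the spread between animals (exact sign-flip permutation p = 0.75, adjusted p = 0.75). Without animal 7 the mean was 0.03, with the opposite sign. Many peaks were close to the narrowest in their list: 55 of 116 in animal 7 (47.4%) and 65 of 108 in animal 9 (60.2%) were within 50 bp of it, against 32.3% and 41.5% of overlapped peaks. After merging, the 226 regions had a median width of 258.5 bp (213 to 1934) and the 895 others 290 bp. A wider region is more easily overlapped, so the rule bears on width.

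Of the 226 regions, 136 lay within 10 kb of a peak of another antibody (60.2%). The rule fixed this gap above 0, so the distances are a description. No share is given for other positions of the genome, so the 60.2% cannot be read as closeness to other peaks. The median gap to the nearest peak of any of the 4 antibodies was 5489 bp, with quartiles of 1618 and 19074 bp. The median was 24574 bp with every list held to a −log10 q of 5 or more, and 12025 bp without animal 9. The gap was under 1 kb for 41 regions (18.1%) and at least 100 kb for 14 (6.19%). MBD3 was nearest at 77 regions, H3K27ac at 75, H3K4me1 at 47 and PolII_S5P at 27. The median gap was 12932 bp to MBD3, 14745 bp to H3K27ac, 17057.5 bp to H3K4me1 and 44807.5 bp to PolII_S5P. Within H3K4me1, PolII_S5P and MBD3, the median gap was smaller to a longer list. This order did not hold for H3K27ac, with 21710.5 bp to the list of animal 7 (67877 peaks) and 19505.5 bp to that of animal 5 (66055 peaks). Over the same 226 regions, the median gap was 230786 bp to the PolII_S5P list of animal 5, which held 4351 peaks, and 53540.5 bp to that of animal 7, which held 19509.

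Regions of animal 7 lay farther from other peaks than regions of animal 9. For the 112 regions of animal 7 alone the median gap to any antibody was 11343.5 bp, and 50 were within 10 kb (44.6%). For the 105 of animal 9 alone it was 2914 bp, and 85 were within 10 kb (81.0%). Gaps of 100 kb or more were found at 12 and 1 regions. By antibody, the medians of animals 7 and 9 were 49075.5 and 34667 bp for PolII_S5P, 32637.5 and 6746 bp for H3K4me1, 31825 and 6495 bp for H3K27ac and 21837 and 7256 bp for MBD3. The 2 sets come from 1 TDG library each, and no test was made.

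**Figure D4:**
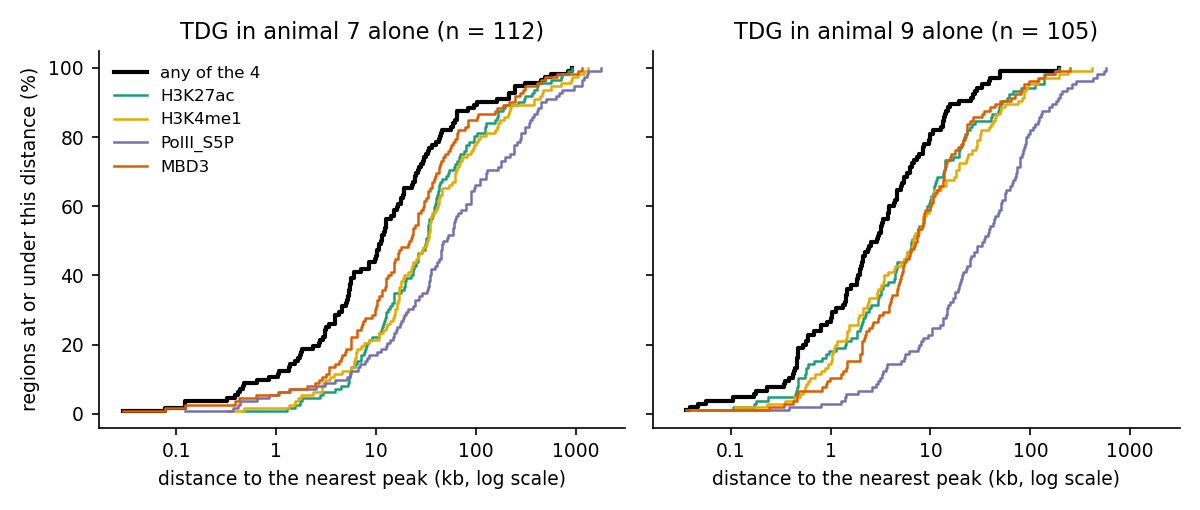
Percent of regions with no other peak (vertical axis) that lie at or under a given distance in kb (horizontal axis, log scale) from the nearest peak of each antibody, for regions with TDG in animal 7 alone (left) and animal 9 alone (right). The black curve for any of the 4 antibodies reaches 44.6% at 10 kb in animal 7 and 81.0% in animal 9, and PolII_S5P is the farthest of the 4 by its median in both.

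These gaps were set beside those of overlapped TDG regions that lacked the same antibody but carried another. For H3K27ac, such regions had a median gap of 7803 bp in animal 7 alone (31 regions) and 7985.5 bp in animal 9 alone (128 regions). Regions with no other peak were thus farther from H3K27ac than these in animal 7 (31825 bp) and nearer in animal 9 (6495 bp). For MBD3 the comparison values were 20291.5 bp (14 regions) and 2556 bp (131 regions), close to the 21837 bp of animal 7 and below the 7256 bp of animal 9. For H3K4me1 they were 15045 and 2212 bp, both below those of the regions with no other peak. For PolII_S5P they were 48104 and 30277.5 bp, near the values given above.

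The regions just inside and just outside the rule are given as examples. The 3 regions closest to another peak were at chromosome 2, 52588220 to 52588944 (29 bp from MBD3), chromosome 13, 44461832 to 44462085 (36 bp from MBD3), and chromosome 10, 43041600 to 43041824 (39 bp from H3K4me1), with folds of 2.71, 3.31 and 5.75. Just outside, chromosome 13, 3951855 to 3952197, shared 9 bp with an MBD3 peak (2.62% of its length, fold 5.79). Chromosome 3, 27926984 to 27927295, shared 32 bp with H3K27ac (10.3%, fold 3.83), and chromosome 10, 70154112 to 70154565, shared 67 bp with MBD3 (14.8%, fold 4.29). A further 79 TDG regions (7.05%) were kept out by a single one of the 12 lists, of which MBD3 lists accounted for 12, 14 and 8 in animals 5, 7 and 9. MBD3 was the only other antibody at 108 TDG regions, H3K27ac at 39, H3K4me1 at 26 and PolII_S5P at 22.

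The most remote regions all came from animal 7. Chromosome 2, 86172247 to 86172467, lay 915107 bp from any other antibody (fold 5.45, 12 fragments). Chromosome 7, 85580868 to 85581216, lay 843075 bp away (fold 3.72, 14 fragments), and chromosome 2, 46899586 to 46899818, 565536 bp away (fold 3.63, 15 fragments). Their −log10 q-values were 3.88, 1.96 and 2.02, where the lowest of the list was 1.33. All 3 thus rest on few fragments, and the last 2 lay near the threshold of the list.

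The regions were scattered over all 19 autosomes. They numbered 9.43 per 100 Mb, and the overlapped TDG regions 37.3 per 100 Mb. The density was highest on chromosome 8 (15.0 per 100 Mb, 19 regions), followed by chromosomes 13 (13.6), 9 (13.2) and 17 (13.0), and lowest on chromosomes 4 (4.57) and 18 (4.58). As a share of all TDG regions of a chromosome, they ranged from 9.52% on chromosome 18 (4 regions) to 31.6% on chromosome 17 (12 regions).

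**Figure D5:**
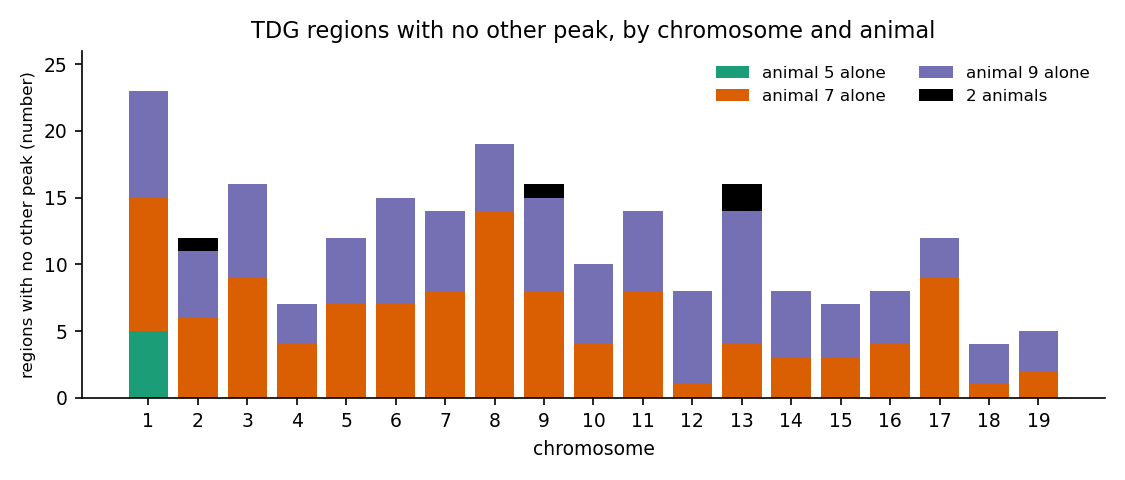
Number of TDG regions with no other peak (vertical axis) on each autosome (horizontal axis), stacked by the animals with a TDG peak. Every autosome holds regions of animals 7 and 9, all 5 regions of animal 5 alone are on chromosome 1, and chromosome 8 holds 14 regions of animal 7 alone.

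Neighbouring regions were far apart, with a median gap of 5.62 Mb, against 0.992 Mb between the more numerous overlapped regions. Another region with no other peak lay within 100 kb of 31 of the 226 (13.7%), in 12 runs of which 8 held only a pair. For overlapped regions, 293 of 895 had another of their kind within 100 kb (32.7%). The overlapped regions were denser (37.3 against 9.43 per 100 Mb), so these shares do not compare clustering at equal density. By animal, 16 of the 112 regions of animal 7 alone (14.3%) and 3 of the 105 of animal 9 alone (2.86%) lay that close to another of the same animal. The 13.7% rested on animal 7 and on high-background peaks: it was 7.58% without animal 7 and 6.97% without peaks of at least 10 times the floor. The median distance to the nearest overlapped TDG region was 795610 bp, with 36 regions (15.9%) within 100 kb and 7 within 10 kb.

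Many of the regions on chromosome 8 lay in 1 stretch, which was singled out once the positions were known. Between 19773720 and 21318044 (1.54 Mb) lay 10 of its 19 regions, 9 of animal 7 alone and 1 of animal 9 alone, together with 12 overlapped TDG regions. The expected counts of the animal 7 peaks there were 1 to 12.3 times the floor, with a median of 9.56. The region of animal 7 with the highest fold, whose expected count was at the floor, is among them.

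The same rule was applied to the other antibodies as a comparison. Merged regions touched by none of the other 4 antibodies made up 33.8% of H3K27ac regions (28139 of 83349), 33.2% of H3K4me1 regions (20807 of 62691), 31.5% of MBD3 regions (23455 of 74385) and 27.9% of PolII_S5P regions (6442 of 23062), against 20.2% for TDG. Of those regions, the share that recurred in 2 or 3 animals was 24.5% for PolII_S5P, 25.9% for H3K4me1, 37.7% for H3K27ac and 46.3% for MBD3, against 1.77% for TDG. Over all 1121 TDG regions, 66 were in 2 animals and 55 in 3. The recurrence over all regions of the other antibodies is not given here. How much of the difference in recurrence belongs to the lists as a whole was therefore not tested. The TDG lists were far shorter than the others, a list is more easily touched by longer ones, and the difference was not tested.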

How the data were processed

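Peak lists in the narrowPeak layout were analysed, 1 per ChIP library and not pooled. The submitters' processing notes name MACS2 2.2.7.1, Picard 2.18.29, SAMtools 1.16.1, Trim Galore 0.6.7 and bcl2fastq 2.20, and the build mm39. Which aligner was used, and which control the peaks were called against, is not given in the sources used here. Each deposited peak has a fold enrichment (the authors' ratio at the summit), its p-value and q-value as −log10, an integer score and the position of the summit within the peak, another kind of number. The lowest −log10 q of the TDG lists was 1.31 to 1.44. Unplaced contigs carry a doubled prefix in the lists for TDG and MBD3 alone, so a difference in the authors' processing cannot be told apart from the antibody.

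Peaks on chromosomes 1 to 19 were used, and 1 shared bp counted as overlap. Summit and expected counts were solved from the deposited fold, taken as (count + 1)/(expected + 1), and the deposited p, taken as a Poisson upper tail. A count was called whole where it gave the deposited −log10 p within 0.001 or 0.01%. At very high counts the 0.01% is wider than the step between whole counts, so a fit could not fail there. Per animal, the median log2 fold, the median log2 width and the percent recurrent of peaks in regions with no other peak were set against those of the other peaks of the same list. The test was a two-sided exact sign-flip permutation over 3 animals, with Benjamini-Hochberg adjustment over 3 tests. The samples are paired because equal numbers are the same animal per the labels. Peaks and regions are not replicates, and their distances and spread were not tested. Binomial and Poisson intervals are exact, at the 95% level, and cover counting error only. The overlap and count code was tested on simulated lists with known answers.

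Regions were named by a rule: those in 2 or 3 animals, the 3 highest folds per animal, the 3 smallest and 3 largest gaps, the 3 others with the smallest overlapped share, and the longest run within 100 kb. The regions, the lists and the rule were chosen with earlier results of these data known. Alternatives were stricter q-values (−log10 q of at least 5), other overlap rules, merging within 500 bp, chromosomes X and Y, antibodies not used, each animal left out with all its lists, and no pairing. Leaving out peaks with at least 10 times the lowest expected count was added after seeing the data. Input samples, sequences and gene annotation were not used here. Computations ran in Python 3.11.15 with scipy 1.17.1, pandas 2.3.3, numpy 2.4.6 and, for figures, matplotlib 3.10.9.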

Additional observations from a re-analysis of the deposited data

Results flagged for a closer look

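Signals appeared in parts of the TDG lists that the comparisons did not use. The list of animal 5 held 12 peaks on the mitochondrial chromosome, against 0 in animal 7 and 1 in animal 9, with 1423 to 3323 fragments at the summit. On chromosomes X and Y, 38 merged TDG regions were found, of which 14 had no other peak, 12 on X and 2 on Y. Their peaks came from animal 7 (11) and animal 9 (3), and none came from animal 5. The animals are labelled female, and the 2 regions on Y are given as the files list them.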

How the results depend on the processing

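The number of regions with no other peak fell from 226 to 65 when all lists were restricted to a −log10 q of at least 5, and the median distance to the nearest other peak was then 24574 bp in place of 5489 bp. Widening the other peaks by 5000 bp left 122 regions. Leaving out 1 animal removed all its lists, those of the other antibodies included. It gave 129 regions (without animal 9) to 251 (without animal 5), with 132 without animal 7. The median distance was then 3947.5 to 12025 bp. The other settings gave 196 to 334 regions, the highest without the MBD3 lists, and 201 without peaks on a high background. The width difference (log2) ran from -0.28 without animal 5 to 0.0264 without animal 7, the only value of opposite sign. The mean percent of TDG peaks in the regions was 9.89 to 32.6 with 1 animal left out. The mean differences in fold and recurrence stayed below 0 in every setting run, but the fold difference of animal 9 was 0 with other peaks widened by 500 or 5000 bp (exact permutation p = 0.5) and without high-background peaks (p = 1). The fold difference was -0.29 without animal 7 and -0.23 without high-background peaks, where animal 5 had none left. The share of regions within 100 kb of another was 7.58 to 17.8% with 1 animal left out, 6.64% within 10 kb and 30.5% within 1 Mb.

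Without the replicate block, the paired differences in fold, width and recurrence kept their means (-0.47, -0.08 and -46.4), and the exact label permutation p was 0.1, 0.6 and 0.2 (adjusted p = 0.3, 0.6 and 0.3), where 0.1 is the smallest that 3 against 3 allows. Leaving out an animal leaves 2, for which neither test can pass the usual threshold. Read depth is not given in the files, and summit counts of 14 and 18 limit what single regions of animals 9 and 7 can show.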
